A study of Homo sapiens with 6 samples.

Results

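The killer cell immunoglobulin-like receptor KIR3DL2 and 8 other receptor genes of the leukocyte receptor complex on chromosome 19 were examined, 9 of the 47102 gene names and loci in the deposited expression table. Of these, 4 are killer cell immunoglobulin-like receptors (KIR3DL2, KIR3DL1, KIR3DL3 and KIR2DL4), 2 are leukocyte-associated receptors (LAIR1 and LAIR2), 2 are leukocyte immunoglobulin-like receptors (LILRB1 and LILRB2) and 1 is the natural cytotoxicity receptor NCR1. KIR3DL2 was selected on its measured difference in FPKM (fragments scaled to transcript length and depth) between knockout and control, where its rise was the 13th largest among single gene names past the threshold, and the others because they lie in the same receptor cluster. The knockout and control values of the 9 genes are therefore given as a description, without a test.

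The libraries were made from cells labelled U-937, a line used as a model of monocytes, whose cell type the labels give as acute myeloid leukemia. The control group held 3 libraries of wild-type genotype, and the knockout group held 3 libraries in which FOXO3A, a forkhead transcription factor also called FOXO3, had been targeted with guide RNAs. Both groups were grown in RPMI1640 medium with serum. The sources used here do not say whether the knockout cells were 1 clone or a mixture, what guide the controls received, or whether each library had a culture of its own. The p-values given here rest on the variation among these 6 libraries alone, and that variation may be technical.

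Receptors of this complex sit on the surface of natural killer cells, T cell subsets, monocytes and B cells, where the inhibitory members recruit tyrosine phosphatases through short motifs in their cytoplasmic tails and dampen activation. KIR3DL2, also known as CD158k, binds certain HLA class I molecules. It is normally carried by a part of the natural killer cells and a few T cells, and it is used as a surface marker of malignant T cells in Sezary syndrome. Each KIR gene is switched on or off separately in a given cell, through a short promoter upstream of the first exon and DNA methylation.

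The labelled cell type did not match the transcripts measured. CD3E, a chain of the T cell receptor complex, stood at 201 ± 16.8 FPKM in the controls and 211 ± 13.6 FPKM in the knockouts (mean ± SD, n = 3 each, as in all such values here). CD14, a monocyte surface receptor, stood at 0.0769 ± 0.0192 and 0.198 ± 0.0912 FPKM. FOXO3 mRNA was at 4.04 ± 0.355 FPKM in the controls and 3.84 ± 0.346 FPKM in the knockouts (limma adjusted p = 0.732), so no difference in the targeted transcript was detected. The cut site of the guides is not stated in the sources at hand, and an edit that leaves the transcript in place would not show in this value. The estimated depth was 4.37 to 5.71 gigabases of aligned sequence in the controls and 4.26 to 4.79 gigabases in the knockouts.

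KIR3DL2 mRNA was about 3 times as abundant in every library labelled knockout as in the controls. The gene occupies chr19:54850443-54867207 on the plus strand (GRCh38). Its level was 2.79, 2.79 and 2.80 FPKM in the 3 control libraries and 8.10, 8.39 and 8.91 FPKM in the 3 knockout libraries. All 3 knockout libraries were above all 3 controls, and the lowest of them was 2.89 times the highest control. The means were 2.79 ± 0.00742 and 8.47 ± 0.406 FPKM, a ratio of 3.03. On the scale of log2(FPKM + 1), used because it damps low values, the knockouts were higher by 1.32 (SE 0.07 in limma). KIR3DL2 was selected on this difference, so the SE is a description and not a test. Without the added 1 the log2 ratio was 1.60.

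The shift moved KIR3DL2 from the middle of the expressed genes to the upper part. Among all names above the floor of the table, KIR3DL2 exceeded 60.6% to 62.6% in the control libraries and 79.0% to 80.8% in the knockout libraries. The reads behind these values were few enough to matter for precision. With 282 bases taken as 1 read pair, the values corresponded to 99.4, 106 and 81.4 read pairs in the controls and 230, 252 and 284 in the knockouts. In bulk RNA, more cells that carry a transcript and more transcript per cell cannot be told apart.

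The 3 control values lay closer together than counting of so few read pairs would usually give. Their coefficient of variation was 0.266%, against a counting error near 10.2% for such numbers and a median of 11.8% over all tested genes. Only 11 of the 11162 tested genes varied less among the controls. In the knockouts the coefficient was 4.80%, with a counting error near 6.26%. The SE given above does not rest on these 3 control values alone, since limma moderates it with the spread of other genes.

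**Figure D1:**
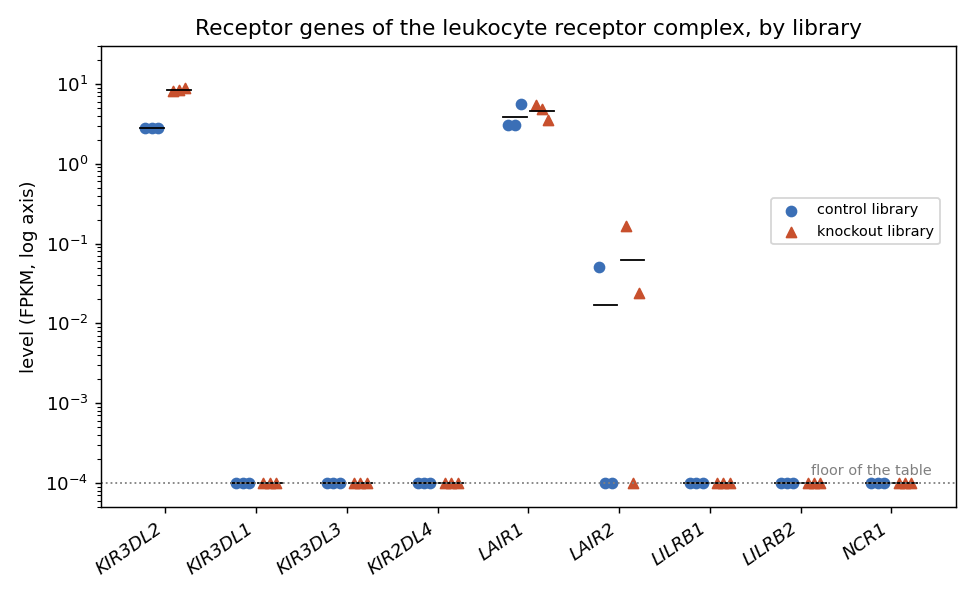
Level of each receptor gene in FPKM (log axis) in the 3 control and 3 knockout libraries, with bars at the group means and a dotted line at the table's floor of 0.0001. KIR3DL2 stood near 2.79 FPKM in the controls and at 8.10 to 8.91 FPKM in the knockouts, the LAIR1 groups overlapped, and 6 genes sat on the floor in every library.

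The other killer cell receptors were not detected. KIR3DL1, the closest relative of KIR3DL2 and a receptor for HLA class I molecules with the Bw4 epitope, lies at chr19:54816468-54830778 on the plus strand, upstream of KIR3DL2, and was listed at the floor of 0.0001 FPKM in all 6 libraries. KIR3DL3, the framework gene at the centromeric end of the KIR cluster and a receptor for HHLA2, was at the floor in all 6 as well (chr19:54724479-54736536, plus strand). KIR2DL4, a receptor for HLA-G, was likewise at the floor in all 6 (chr19:54803535-54814517, plus strand). In KIR3DL1, 3 read pairs would have given 0.0792 to 0.106 FPKM, a level that limits what could have been missed in a library. KIR genes vary between people in sequence and in number, and reads from an allele unlike the reference can be lost in alignment.

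The transcripts of these genes were alike in sequence but shared few long unchanged stretches. The longest KIR3DL2 transcript, of 1877 bases, was 92.5% identical to that of KIR3DL1 over 1871 aligned bases, 89.2% identical to KIR3DL3 and 87.7% identical to KIR2DL4. Of the 1828 windows of 50 bases in it, 112 (6.13%) occurred unchanged in a transcript of another gene, and 3.56% did so in KIR3DL1. Of the 1778 windows of 100 bases, 0 were shared. The treatment of reads with several matches is not stated in the sources at hand, so the split of reads between KIR genes is uncertain. The windows count only exact matches to reference transcripts, so they do not bound that uncertainty.

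The promoters of KIR3DL2, KIR3DL1 and KIR3DL3 are shown because these related genes differed in whether they were detected. Each sequence holds the 250 bases before the RefSeq start on the plus strand of GRCh38.p14. They lie at chr19:54850193-54850442 for KIR3DL2, chr19:54816218-54816467 for KIR3DL1 and chr19:54724192-54724441 for KIR3DL3. Capitals mark, from left to right, an ETS motif (AGGAAG), a YY1 motif (CCATNTT), a cyclic AMP response element core (CGTCA) and a RUNX motif (TGTGGT).
KIR3DL2: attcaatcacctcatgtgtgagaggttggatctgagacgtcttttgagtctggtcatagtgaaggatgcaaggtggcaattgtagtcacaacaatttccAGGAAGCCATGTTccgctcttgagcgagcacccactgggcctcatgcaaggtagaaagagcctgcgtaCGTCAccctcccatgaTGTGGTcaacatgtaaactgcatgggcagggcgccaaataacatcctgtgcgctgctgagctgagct
KIR3DL1: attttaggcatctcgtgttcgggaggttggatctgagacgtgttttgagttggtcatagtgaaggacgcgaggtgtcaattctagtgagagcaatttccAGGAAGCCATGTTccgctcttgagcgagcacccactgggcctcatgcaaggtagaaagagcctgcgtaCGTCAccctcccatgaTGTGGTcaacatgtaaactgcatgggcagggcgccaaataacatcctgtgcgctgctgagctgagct
KIR3DL3: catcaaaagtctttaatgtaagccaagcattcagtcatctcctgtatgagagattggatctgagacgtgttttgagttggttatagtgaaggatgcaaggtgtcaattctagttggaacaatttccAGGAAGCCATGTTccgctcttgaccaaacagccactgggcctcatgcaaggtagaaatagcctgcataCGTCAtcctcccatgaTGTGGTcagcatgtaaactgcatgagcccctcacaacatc

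The promoters of the expressed and the undetected gene were nearly the same. The KIR3DL2 and KIR3DL1 windows were 93.2% identical over 249 aligned bases, with 17 differing bases, and the last 159 bases before the start were identical. All 4 marked motifs lie within that identical stretch, the ETS motif 151 to 146 bases, the YY1 motif 145 to 139 bases, the cyclic AMP response core 83 to 79 bases and the RUNX motif 67 to 62 bases before the start. KIR3DL3 was 88.7% identical to KIR3DL2 over 222 aligned bases and held the same 4 motifs, 124 to 119, 118 to 112, 56 to 52 and 40 to 35 bases before its start. In KIR2DL4, 69.5% identical to KIR3DL2, the cyclic AMP response core occurred once and the RUNX motif at 2 places, and the ETS and YY1 motifs were absent from the window. No 2 of these matches overlapped.

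The motifs were searched on both strands, and short motifs are common. Among 34788 distinct promoter windows of the same length, AGGAAG occurred in 28.7%, CGTCA in 21.2%, CCATNTT in 11.6% and TGTGGT in 11.0%. GTAAACA, the core bound by forkhead factors such as FOXO3, occurred in 2.98% of windows and in none of the 4 KIR windows. Only this exact string was searched, so variant forms of a forkhead site were not covered. The KIR3DL2, KIR3DL1 and KIR3DL3 windows hold GTAAACT, which differs from it in the last letter. A match is a description of letters and not a bound site, and DNA methylation was not measured here.

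LAIR1, an inhibitory receptor for collagens that is found on most leukocytes, was the only other member with a mean of at least 1 FPKM. It lies at chr19:54351384-54370558 on the minus strand. Its level was 3.02, 3.09 and 5.62 FPKM in the controls and 5.47, 4.84 and 3.55 FPKM in the knockouts. The groups overlapped, because the third control library was above every knockout library. The means were 3.91 ± 1.48 and 4.62 ± 0.975 FPKM, and the difference was 0.22 on the scale of log2(FPKM + 1) (SE 0.23, 95% interval -0.34 to 0.78). The LAIR1 difference was 0.46 without the third control library, 0.10 without the first control, 0.11 without the second control or the first knockout, and 0.36 without the third knockout. The LAIR1 row combined 25 transcripts, 2 of them assembled by the authors' tools rather than taken from the reference, so a change between isoforms could also move its value.

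LAIR2, a secreted relative of LAIR1 that competes for the same collagen ligands, was near the limit of detection. It lies at chr19:54497879-54510687 on the plus strand. Its level was 0.0502 FPKM in 1 control library and 0.165 and 0.0240 FPKM in 2 knockout libraries, and it was at the floor in the other 3 libraries. All 6 values were below the 0.212 to 0.284 FPKM that 3 read pairs would give for a transcript of its length, and 9.85% of its windows of 50 bases also occur in LAIR1. No difference was detectable at this depth.

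The remaining members were at the floor in all 6 libraries. LILRB1 (chr19:54617158-54637528, plus strand) and LILRB2 (chr19:54273821-54281184, minus strand) are inhibitory receptors for HLA class I molecules, the first on B cells and natural killer cells as well as monocytes, the second chiefly on myeloid cells. NCR1 (chr19:54906150-54916140, plus strand) encodes NKp46, an activating receptor of natural killer cells. In all, 6 of the 9 members were at the floor in every library, and 3 read pairs would have given 0.0501 to 0.123 FPKM in these 6. Windows of 50 bases that recur in other genes made up 18.2% of LILRB1 and 18.8% of LILRB2, and 10.6% and 15.3% recurred in the other member of the pair.

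Of the 2 members that passed the filter of a mean of at least 1 FPKM, KIR3DL2 alone had groups that did not overlap. Over all 11162 names and loci tested, 32.3% had groups that did not overlap and 17.7% did so with the knockouts higher. Since the choice of KIR3DL2 used this comparison, nothing is read from its count.

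Among genes with a row of their own, KIR3DL2 was an isolated transcript in its stretch of the chromosome. The nearest such gene before it with a mean of at least 1 FPKM was LENG8 (5.43 FPKM), 388 kb away. The nearest after it was PPP1R12C (5.05 FPKM), 224 kb away. Wholly between them lie 28 other annotated genes with a row of their own, of which 22 were at the floor in all 6 libraries. The highest of the 28, RDH13, had a mean of 0.975 FPKM. Annotated genes without such a row could not be judged. Of these 28, the genes directly on either side of KIR3DL2 were the receptor gene KIR2DS4 and the small RNA gene RNU6-222P. Both were at the floor in every library, as was the next protein-coding gene, FCAR, which encodes the Fc receptor for IgA. These neighbours are named for their position.

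**Figure D2:**
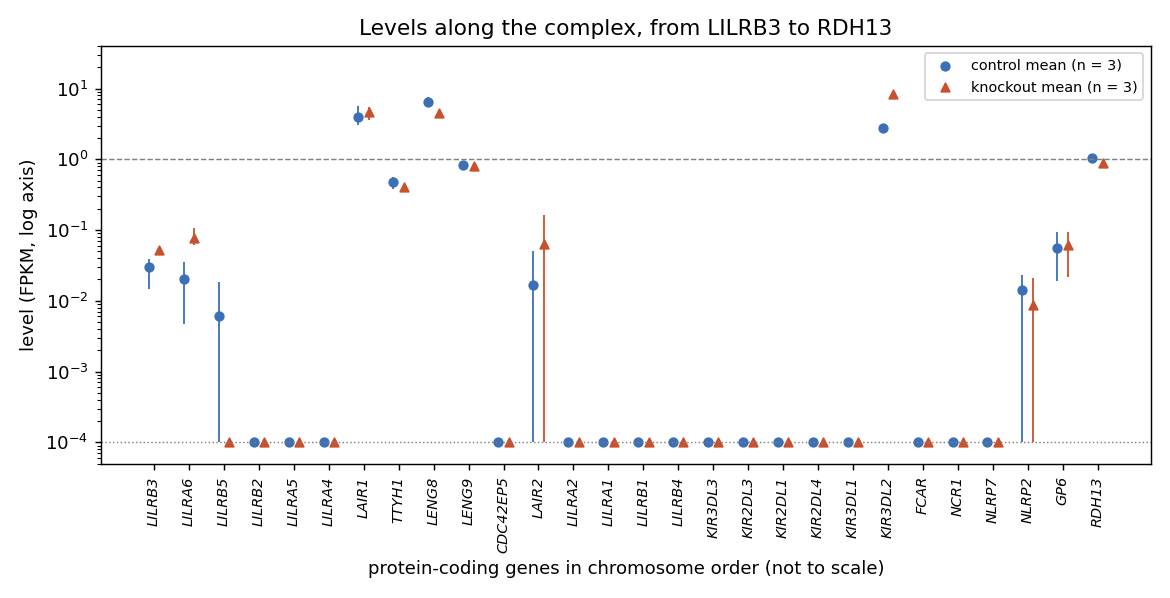
Mean level in FPKM (log axis) in the controls and the knockouts, for protein-coding genes from LILRB3 to RDH13 in chromosome order and not to scale; lines span the 3 libraries of a group, the dashed line marks 1 FPKM and the dotted line the floor. KIR3DL2 stood above 1 FPKM. Of the 18 other protein-coding genes after LENG8 with a row of their own, 13 were at the floor in all 6 libraries.

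Further receptors of the complex that had a row were at the floor or low. Of 30 such genes outside the 9 members, 21 had a row of their own and 15 of those were at the floor in all 6 libraries. The other 9 had no row and cannot be judged. None of the 21 reached a mean of 1 FPKM, so none was tested. GP6, a collagen receptor of platelets, was the highest at 0.0553 ± 0.0367 FPKM in the controls and 0.0621 ± 0.0364 FPKM in the knockouts. LILRA6, an activating relative of LILRB3 with which it shares most of its sequence, stood at 0.0204 ± 0.0155 and 0.0770 ± 0.0248 FPKM. The 21 levels summed to 0.123 to 0.195 FPKM in the controls and 0.214 to 0.243 FPKM in the knockouts. Levels of the single genes were around or below the 0.0501 to 0.123 FPKM of 3 read pairs in the members at the floor. No difference is read from them or from their sum.

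None of the tested genes that flank the receptors was called. Over all names and loci tested, limma with Benjamini-Hochberg adjustment called 299 (2.68%) at the threshold of 0.05, with 154 (1.38%) higher and 145 (1.30%) lower in the knockouts. That count ranged from 68 without the second or the third knockout library to 926 without the first control library. Leaving out the second control gave 128, the third control 95 and the first knockout 79. Of 13 tested genes beside the receptors, 0 were called in either direction, 7 were higher and 6 lower, and their median difference was 0.01 on the scale of log2(FPKM + 1), against 0.02 for all names tested. RPS9, a ribosomal protein gene, stood at 150 ± 9.77 FPKM in the controls and 135 ± 8.35 FPKM in the knockouts (adjusted p = 0.256). TFPT, a subunit of the INO80 chromatin remodelling complex, stood at 37.4 ± 2.05 and 37.1 ± 1.88 FPKM (adjusted p = 0.939).

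Most signalling partners of these receptors were expressed, and none of those tested was called. Of 16 adaptor, kinase and phosphatase genes, 14 were tested, 7 higher and 7 lower, with a median difference of 0.05. LCK, the kinase that phosphorylates the cytoplasmic motifs of such receptors in T cells, stood at 181 ± 10.9 FPKM in the controls and 169 ± 9.40 FPKM in the knockouts (adjusted p = 0.444). PTPN6, the phosphatase recruited by KIR3DL2 and LAIR1, was at 12.4 ± 0.829 and 16.5 ± 1.00 FPKM, a difference of 0.39 (SE 0.08) that did not pass the threshold (adjusted p = 0.0567). PTPN6 is named for its role. GRB2, an adaptor of Ras signalling, was at 47.7, 46.4 and 48.2 FPKM in the controls and 12.6, 44.4 and 26.5 FPKM in the knockouts (adjusted p = 0.217). TYROBP and FCER1G, adaptors of activating receptors, were below the filter. TYROBP was at the floor in 5 libraries and at 0.0860 FPKM in the third knockout, and FCER1G had means of 0.276 and 0.397 FPKM. CD247, another such adaptor named for its role, stood at 18.4 ± 1.06 and 20.8 ± 1.26 FPKM (adjusted p = 0.232).

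The ligands of the receptors were partly expressed. Of 17 ligand genes, 14 had a row of their own and 4 were tested, all 4 with a higher mean in the knockouts and none called, with a median difference of 0.24. B2M, the light chain of HLA class I, stood at 75.9 ± 4.12 FPKM in the controls and 90.1 ± 0.596 FPKM in the knockouts (log2 difference 0.25, adjusted p = 0.0772). The adjusted p of B2M was 0.0412 under quantile normalization, while correction for transcript length and GC content took its difference to 0.04 (adjusted p = 0.748). HLA-G, the ligand of KIR2DL4, was at the floor in all 6 libraries, and HHLA2, the ligand of KIR3DL3, had means of 0.0422 and 0.137 FPKM. HLA-B and HLA-C shared 1 row and could not be separated. That row, not counted among the 4, stood at 45.7 ± 4.47 and 60.0 ± 6.76 FPKM (log2 difference 0.39, adjusted p = 0.0985).

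Regulators tied to KIR transcription included 3 that rose. Of 20 such genes, 18 had a row of their own and 15 were tested, 8 higher and 7 lower. Their median difference was 0.12, against 0.02 for all names tested. Of the 15, 3 were called higher and 0 lower, against 1.38% and 1.30% of all names tested. The list was written with earlier results of these data known, so nothing is read from this count. With the replicate number as a block in limma, the adjusted p was 0.101 for EOMES, 0.109 for TOX and 0.124 for RUNX1. EOMES, a T-box factor of natural killer and cytotoxic T cells, rose from 1.10 ± 0.172 to 3.01 ± 0.261 FPKM (log2 difference 0.93, SE 0.10, adjusted p = 0.0111), and without the second knockout library its adjusted p was 0.0512. TOX, a nuclear factor of T and natural killer cell development, rose from 23.8 ± 1.91 to 34.2 ± 0.883 FPKM (0.51, SE 0.08, adjusted p = 0.0291). RUNX1, a factor of the family that binds the RUNX motif, rose from 15.7 ± 0.907 to 21.1 ± 0.687 FPKM (0.41, SE 0.07, adjusted p = 0.0392). TOX and RUNX1 passed the threshold when the first control library was left out but not when any other library was, where adjusted p reached 0.118 and 0.164. With a correction for transcript length and GC content the TOX difference was 0.27 and no longer passed. RUNX3, which is named for its role at the RUNX motif, was at 4.45 ± 0.314 and 3.21 ± 0.182 FPKM (adjusted p = 0.0637).

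**Figure D3:**
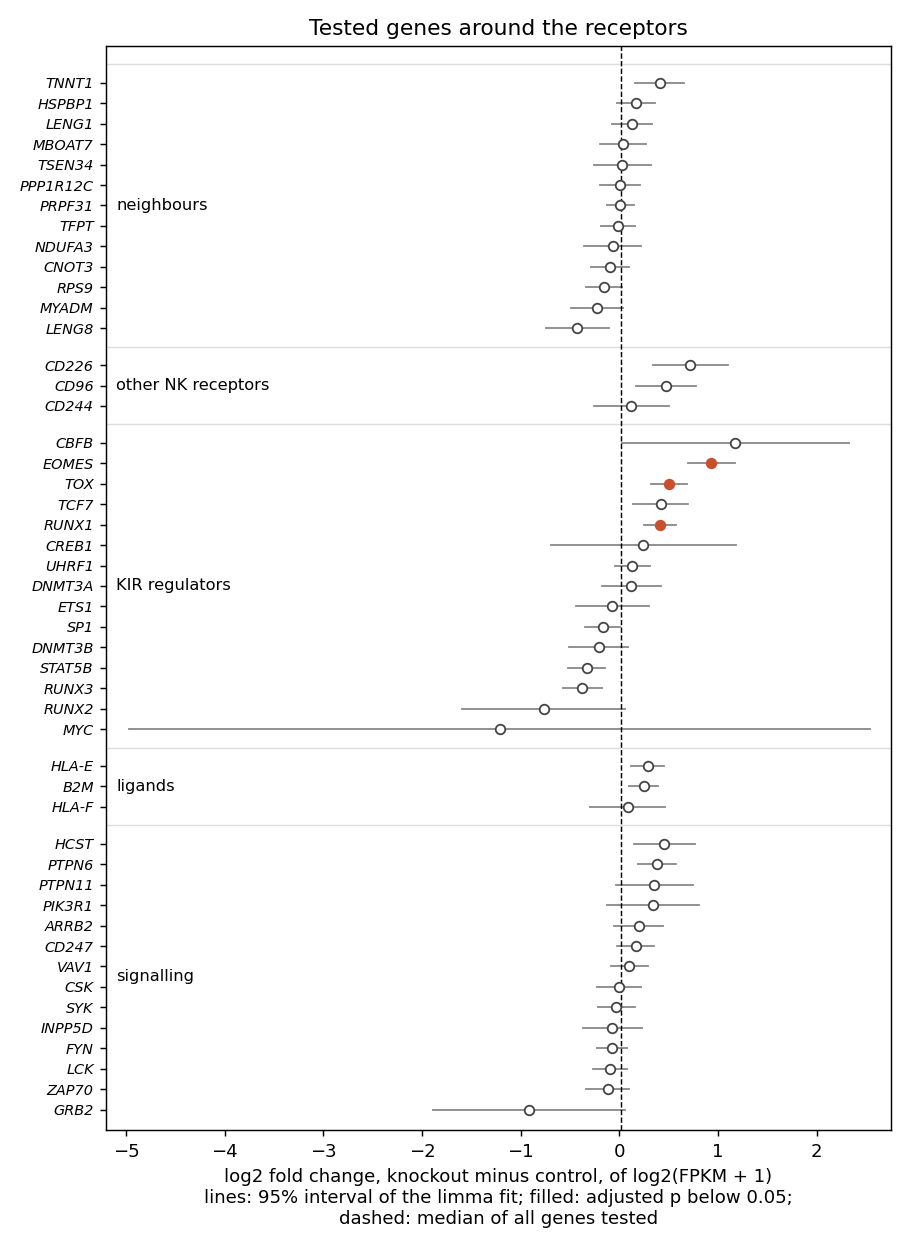
Difference between knockout and control on the scale of log2(FPKM + 1), with 95% intervals, for the tested genes of the lists of neighbours, other natural killer receptors, KIR regulators, ligands (1 of the 4 left out) and signalling genes. EOMES, TOX and RUNX1 (filled) passed the threshold at 0.93, 0.51 and 0.41, and the dashed line marks the median of all names tested, 0.02.

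Genes used beside KIR3DL2 to describe Sezary cells included 2 that rose. Of 15 such genes, 7 were tested, 5 higher and 2 lower, with a median difference of 0.37. Over all names tested the median was 0.02, and 1.38% were called higher. The list was taken whole and not split by the direction a gene takes in Sezary cells, so its median has no single direction to read. It was also written with earlier results of these data known. The 2 that rose were TOX, already given, and CCR4, a skin-homing chemokine receptor. CCR4 went from 1.67 ± 0.0991 to 2.91 ± 0.396 FPKM (0.55, SE 0.10, adjusted p = 0.0489). CCR4 also passed only when no library or the first control was left out, with an adjusted p of up to 0.162 otherwise. The rest of the tested genes were not called. PLS3 stood at 5.54 ± 0.974 FPKM in the controls and 5.59 ± 0.255 FPKM in the knockouts (adjusted p = 0.933). TWIST1 and GATA3 had higher means (adjusted p = 0.105 and 0.0521), and CD7 and CD164 lower ones (adjusted p = 0.958 and 0.714).

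Of 21 other receptors of natural killer cells encoded outside the complex, 3 reached a mean of 1 FPKM and 6 were at the floor in all 6 libraries. All 3 that were tested had a higher mean in the knockouts, and none was called. CD244, a receptor of the SLAM family, stood at 5.57 ± 0.985 FPKM in the controls and 6.15 ± 1.03 FPKM in the knockouts (adjusted p = 0.653). CD96, a receptor for CD155, stood at 3.27 ± 0.656 and 4.89 ± 0.379 FPKM (log2 difference 0.47, adjusted p = 0.0900). The adjusted p of CD96 was 0.0359 without the first control library and up to 0.238 without any other, and correction for length and GC took its difference to 0.28 (adjusted p = 0.275).

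Among the cell type markers, 3 of T cells and 1 of natural killer cells rose in the knockouts. The 11 T cell markers summed to 599 to 674 FPKM in the controls and 680 to 737 FPKM in the knockouts. Of the 11, 3 rose and 0 fell, against 1.38% and 1.30% of all names tested. In all, 9 had a higher mean in the knockouts and 2, LCK and CD7, a lower one. CD3D, with the largest difference in FPKM, stood at 170 ± 12.8 and 212 ± 6.99 FPKM and was not called (adjusted p = 0.0671). TRAT1, a T cell receptor adaptor, rose from 5.99 ± 0.708 to 12.6 ± 1.11 FPKM (adjusted p = 0.0116). CD2, an adhesion receptor, rose from 1.39 ± 0.287 to 3.16 ± 0.102 FPKM (adjusted p = 0.0214), and BCL11B, a T lineage factor, rose from 12.8 ± 0.372 to 16.7 ± 0.575 FPKM (adjusted p = 0.0450). TRAT1 missed the threshold without the third control, the first knockout or the second knockout (adjusted p up to 0.0617), and CD2 and BCL11B missed it without any library other than the first control (up to 0.0980 and 0.178). The log2 difference of TRAT1 was 0.97, and 0.53 and not called with the correction for length and GC, while BCL11B, at 0.36, was not called at 0.31 under upper-quartile scaling.

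The 11 natural killer cell markers summed to 7.21 to 10.8 FPKM in the controls and 16.2 to 18.6 FPKM in the knockouts. Of these, 3 were tested and 1 rose, against 1.38% of all names tested. That 1 was EOMES, already counted among the KIR regulators. NKG7, a granule membrane protein of cytotoxic cells, made up the largest part of the sum, at 4.12 ± 1.60 and 9.91 ± 1.04 FPKM (adjusted p = 0.0586). PRF1, which encodes perforin, stood at 2.45 ± 0.314 and 3.28 ± 0.418 FPKM (adjusted p = 0.155), and GZMB, which encodes granzyme B, at 0.931 ± 0.155 and 0.415 ± 0.142 FPKM, too low to be tested. Other markers of the list were at or near 0, with NCAM1 at 0.0423 ± 0.0207 and 0.0989 ± 0.0600 FPKM, KLRF1 and SH2D1B at the floor in all 6 libraries and FCGR3A at the floor in 5. The 14 monocyte and macrophage markers with a row of their own summed to 4.21 to 5.35 FPKM in the controls and 4.51 to 5.03 FPKM in the knockouts, and 3 of them were at the floor in every library. Most of that sum was CEBPB, at 4.21 ± 0.585 and 3.60 ± 0.358 FPKM (adjusted p = 0.361). S100A9, a calcium-binding protein of myeloid cells, was at the floor in 2 controls and at 0.0938 FPKM in the other, and at 0.415, 0.312 and 0.472 FPKM in the knockouts. FCER1G, a signalling chain of Fc receptors, stood at 0.276 ± 0.0731 and 0.397 ± 0.182 FPKM. The 7 B cell markers summed to 37.0 to 44.7 and 26.3 to 33.2 FPKM, nearly all of it CD79A, at 39.4 ± 3.84 and 28.1 ± 3.69 FPKM (adjusted p = 0.0741), with CD79B below 1.13 FPKM in every library. The part of these shifts in the KIR3DL2 values was not tested.

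The genes whose pattern over the 6 libraries was most like that of KIR3DL2 were KRT1, H2AFV, AC004847, SLA and GRAP2. Likeness was Pearson's r of log2(FPKM + 1) over the 6 libraries, computed for 9883 single names, and the 6 points fall into the 2 groups, so a high r mostly restates the difference between them. In all, 476 names (4.82%) had an r over 0.9. KRT1, a keratin of the upper epidermis, had an r of 1.00 and means of 6.51 ± 0.199 FPKM in the controls and 27.5 ± 1.04 FPKM in the knockouts. H2AFV, a histone H2A variant, had an r of 0.998 and means of 33.7 ± 0.227 and 44.8 ± 0.895 FPKM. AC004847, a clone-based name, had an r of 0.998 and means of 10.1 ± 0.580 and 29.1 ± 1.24 FPKM. SLA, an adaptor that dampens T cell receptor signalling, had an r of 0.998 and means of 18.1 ± 0.383 and 26.5 ± 0.703 FPKM. GRAP2, an adaptor that links LAT to SLP76 in T cells, had an r of 0.997 and means of 5.15 ± 0.237 and 10.1 ± 0.249 FPKM.

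**Figure D4:**
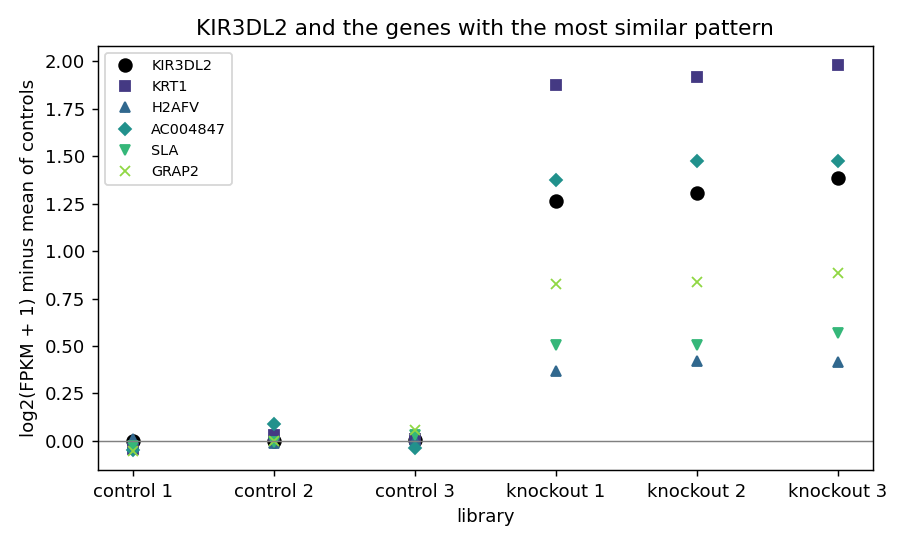
Level of KIR3DL2 and of the 5 names with the highest Pearson's r to it in each of the 6 libraries, as log2(FPKM + 1) minus the mean of the controls. Each of the 5 was low in all 3 controls and high in all 3 knockouts, as KIR3DL2 was, with r from 0.997 to 1.00.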

How the data were processed

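RNA sequencing was measured in 3 control and 3 knockout libraries. The deposited table gives FPKM per library, per the file headers. The submitters' processing notes name build hg38, Bowtie 0.12.9, Cufflinks 2.1.1 and HTSeq without saying which tool made the values. Per the labels' protocols, a SMARTER mRNA kit was used on total RNA. Strand use is not stated in the sources at hand.

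The table held 56418 rows, 35986 with an Ensembl gene ID and 20432 with the ID of an assembled locus. The KIR3DL2 row had an assembled locus ID but held 2 reference transcripts and 0 assembled ones. Identical rows were dropped and the rest summed per name, which left 47102 names and loci, and 1527 rows naming several genes were kept as loci. A value of 0.0001 was treated as a floor. Groups were compared on log2(FPKM + 1) by limma 3.58.1 (R 4.3.3), two-sided, with a mean-variance trend and Benjamini-Hochberg adjustment over the 11162 names with a mean of at least 1 FPKM. Differences on this scale are smaller than the true log2 ratio where values are low. The code of the fit was run on simulated data with independent noise in each gene. Such data cannot show how the calls respond to shifts of a whole library.

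FPKM times transcript length came in steps, read as aligned bases, which gave the depth; 74.1% to 76.4% of the low values were whole steps to within 0.1. The most frequent value was 282 steps in every library, taken as 1 read pair. Limits from 3 read pairs cover counting error only. Positions and transcripts came from GENCODE 29 and promoters from RefSeq (GRCh38.p14), which held 8 of the 9 members. LAIR2 was the one without.

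The members and the gene lists were chosen with earlier results of these data known, and the motifs with the promoter sequence in view. Named were the members, FOXO3, up to 4 called genes of each list or else its 2 highest, the 5 names most like KIR3DL2, and CD3E, CD14 and NCAM1. Of the ligand list, 1 gene chosen by this rule is not reported here. Genes named for position or role, or to complete a list, were added after their values were seen. Alternatives covered the pseudocount, filter, scaling, variance trend, replicate block, row per gene and each library left out, and, chosen after seeing the data, a correction for transcript length and GC. Python 3.11.15, pandas 2.3.3, Biopython 1.88 and matplotlib 3.10.9 were used.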

Additional observations from a re-analysis of the deposited data

How the results depend on the processing

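The KIR3DL2 difference was 1.32 as reported, 1.57 and 1.60 with pseudocounts of 0.1 and 0.01, 1.27 under quantile normalization, 1.39 with length and GC corrected, and 1.29 to 1.35 with each library left out. Among named genes, only values near 0 that were not called changed sign. TFPT, at -0.01, was 0.11 with length and GC corrected, 0.03 without the second control and 0.02 without the third knockout. CD244, at 0.12, was -0.01 without the third control, and FOXO3, at -0.06, was 0.00 without the third knockout. The 2 members with a mean of at least 1 FPKM were 2 under every alternative run. The 299 names called became 193 with no filter and 542 under quantile normalization, and 68 to 926 with each library left out. Upper-quartile scaling called 170 higher and 260 lower, against 154 and 145. Of list genes, 7 were called as reported, 4 with no filter and 1 to 11 with each library left out. TOX, CCR4 and TRAT1 were not called under that correction.

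Replicate numbers were not taken as pairs, since same-numbered libraries deviated from their group means with correlations of 0.0984, -0.0392 and 0.0162, and not every library correlated best with its own number. With the replicate number as a block, the names called were 27 and the list genes called were 0. A block cannot change a difference in this balanced design, so the KIR3DL2 difference was 1.32 by construction, with an SE of 0.08. Presence of the receptors listed at the floor cannot be judged under the level of 3 read pairs, 0.0501 to 0.123 FPKM depending on length and library.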
